A study of Homo sapiens with 6 samples.

Results

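The genes that attach ISG15 to proteins and take it off again were examined in NCI-H1299 cells with FuHsi knocked down and in control cells of the same line. Members were chosen by symbol: ISG15, UBA7, UBE2L6, HERC5, HERC6 and USP18, which are 6 of the 60617 genes in the count table, and all 6 were found. NCI-H1299 is an established human lung cancer line. The series profiled RNA after FuHsi knockdown to ask what FuHsi does in the nucleolus. The 3 knockdown libraries carry Sh1 in their titles and the genotype FuHsi knock-down, and the 3 control libraries carry Puro in their titles and the genotype WT. All 6 came from cells grown in RPMI1640 with fetal bovine serum and antibiotics. The labels name no other treatment and spell out neither Sh1 nor Puro. All 3 knockdown libraries carry the same Sh1 label. Loss of FuHsi and any other effect of what Sh1 stands for therefore cannot be told apart. Nothing in the labels says that replicates were separate cultures, so p-values measure only the spread between these libraries, which may be technical.

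ISG15 is a small protein built of 2 ubiquitin-like domains, and cells make it when interferon signals to them. It is joined to lysines of other proteins by a cascade like that of ubiquitin: UBA7 activates it, UBE2L6 carries it, and HERC5 is the main ligase in human cells. USP18 removes it again, and apart from that activity binds the interferon receptor subunit IFNAR2 and damps the signal. All of these genes are known targets of interferon, whose signal reaches them through a complex that holds STAT2 and IRF9 and binds a promoter element called ISRE.

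All 6 genes were higher in knockdown, by 3.4-fold for UBA7 to 12.9-fold for ISG15. By edgeR's quasi-likelihood test with Benjamini-Hochberg adjustment over 17223 tested genes, 6 of 6 rose at an adjusted p under 0.05, where 30.7% of tested genes rose and 30.9% fell. These shares stand for 5295 and 5317 genes, and scaling by library size alone, which moved the median of all genes by 0.15, gave 6986 higher and 3855 lower with the 6 members again higher. At a rise of at least 2-fold the count was again 6 of 6, against 9.16% of tested genes. The median log2 fold change of the 6 was 2.91, and that of all tested genes was 0.03. Levels are given as CPM, the counts of a gene relative to the library's total, with totals adjusted by TMM (trimmed mean of M values). For each of the 6, the lowest knockdown library lay above the highest control library, as one group lay wholly to one side of the other for 65.3% of tested genes. RNA was pooled over cells, so a rise in a few cells and a smaller rise in all cells cannot be told apart.

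**Figure D1:**
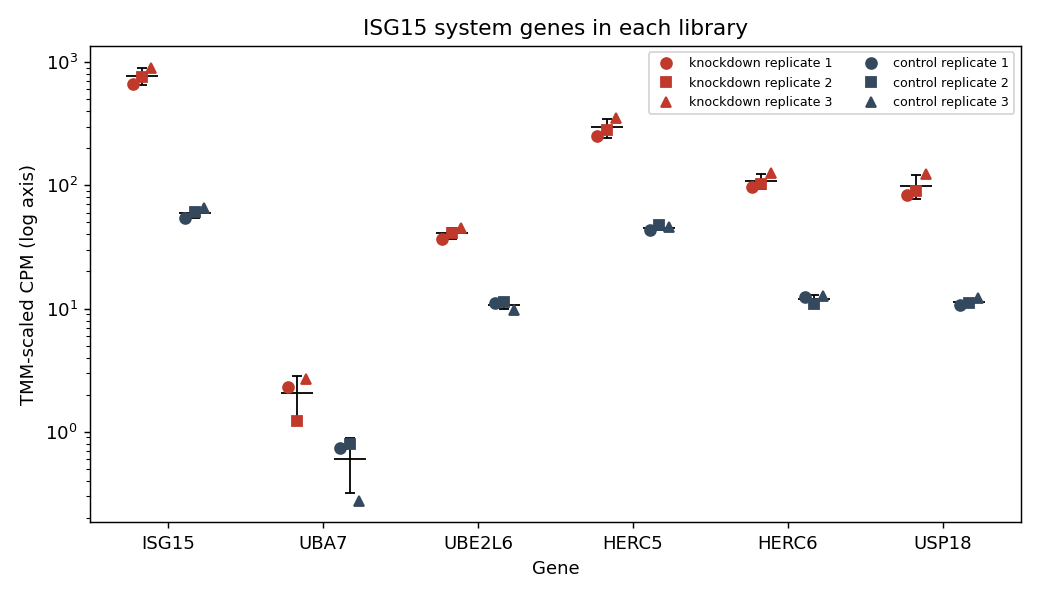
TMM-scaled CPM on a log axis of the 6 genes in each library, knockdown (red) left of control (blue), with circles, squares and triangles for replicates 1, 2 and 3 and black bars for mean ± SD (n = 3). ISG15 is the most abundant, at 662 to 902 CPM in knockdown and 53.9 to 64.9 CPM in control, and UBA7 the least, at 1.22 to 2.7 CPM in knockdown and 0.277 to 0.801 CPM in control.

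Promoter windows of 250 bases before and 50 bases after the RefSeq start (GRCh38.p14) were listed for 4 of the 6 genes, with a pair of starts for UBE2L6; UBA7 and USP18 had none in the table. The windows of ISG15 and of the neighbouring ligase genes HERC5 and HERC6 are shown because the HERC pair differ in them. They lie at chr1:1013247-1013546, chr4:88456869-88457168 and chr4:88378602-88378901, all on the plus strand. Capitals mark matches to the ISRE core GAAANNGAAA on either strand, which reads TTTCNNTTTC where the match is on the opposite strand; overlapping matches run together.
ISG15: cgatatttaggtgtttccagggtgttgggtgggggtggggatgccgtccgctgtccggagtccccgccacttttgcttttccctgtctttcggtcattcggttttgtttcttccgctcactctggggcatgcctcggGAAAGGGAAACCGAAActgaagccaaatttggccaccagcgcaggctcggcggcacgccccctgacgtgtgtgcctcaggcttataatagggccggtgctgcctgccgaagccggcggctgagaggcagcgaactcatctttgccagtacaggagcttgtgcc
HERC5: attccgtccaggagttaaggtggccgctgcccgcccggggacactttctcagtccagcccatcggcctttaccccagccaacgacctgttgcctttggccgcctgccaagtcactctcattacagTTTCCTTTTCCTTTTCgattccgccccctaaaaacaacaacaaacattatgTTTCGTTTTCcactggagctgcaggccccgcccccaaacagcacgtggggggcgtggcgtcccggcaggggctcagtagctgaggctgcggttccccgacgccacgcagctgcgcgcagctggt
HERC6: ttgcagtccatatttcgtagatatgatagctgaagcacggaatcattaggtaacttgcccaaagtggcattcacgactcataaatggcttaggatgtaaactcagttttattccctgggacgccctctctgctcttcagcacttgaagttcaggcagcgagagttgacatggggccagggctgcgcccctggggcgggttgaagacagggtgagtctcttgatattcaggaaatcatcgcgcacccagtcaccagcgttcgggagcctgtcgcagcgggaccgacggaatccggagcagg
ISG15 held 2 overlapping matches, starting 113 and 107 bases before the start. HERC5 held 3, at 125, 119 and 74 bases before it, all on the opposite strand and the first 2 overlapping. HERC6 and both UBE2L6 windows held 0. Of all 35116 promoter windows of this length, 3.57% held the core, against 37 of 62 windows (59.7%) of other interferon-response genes. The shorter GAS element TTCNNNGAA, another interferon-response element, was in 0 of the 5 windows, in 7.66% of all and in 17 of 62 windows (27.4%) of other interferon-response genes. A match is a run of letters and not a measured binding site, and its absence says only that these letters are not in the window.

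**Figure D2:**
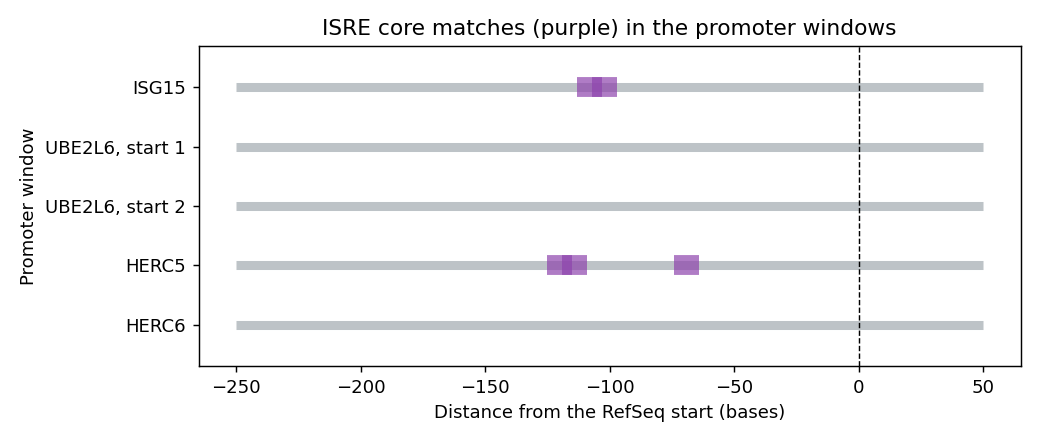
Position of ISRE core matches (purple) in the 5 promoter windows of ISG15, UBE2L6 (a pair of starts), HERC5 and HERC6, as distance in bases from the RefSeq start (dashed line). ISG15 has 2 matches and HERC5 has 3, all within 125 bases before the start, and the other windows have 0.

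ISG15, the modifier itself (ENSG00000187608, GRCh38 chromosome 1, 1001138 to 1014540, plus strand), had the largest rise of the 6. Its levels were 662, 758 and 902 CPM in knockdown libraries 1, 2 and 3, against 53.9, 60.8 and 64.9 CPM in control libraries 1, 2 and 3. The lowest knockdown library thus stood far above the highest control library. The log2 fold change was 3.69 ± 0.16 (SE) (adjusted p = 3.4e-05 in edgeR's quasi-likelihood test). It ranked 54 of the 17223 tested genes by fold change. In these counts 3.83% of its exonic bases overlap exons of another gene, AL645608.3.

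UBA7, the activating enzyme (E1) that starts the cascade (ENSG00000182179, chromosome 3, 49805207 to 49813946, minus strand), was by far the least abundant. It had 69, 31 and 69 counts in knockdown libraries and 24, 26 and 8 counts in control libraries. The 95% Poisson intervals of the nearest libraries, 31 counts in knockdown replicate 2 (21.1 to 44.0) and 26 in control replicate 2 (17 to 38.1), overlapped. These intervals cover counting error only and take each count as independent, which was not tested, so they may be too narrow. Scaled, the levels were 2.33, 1.22 and 2.7 CPM in knockdown, against 0.734, 0.801 and 0.277 CPM in control. UBA7 rose by 1.77 ± 0.34 (SE) on the log2 scale (adjusted p = 1.24e-05 in edgeR's quasi-likelihood test).

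UBE2L6, the conjugating enzyme (E2) that takes ISG15 from UBA7 (ENSG00000156587, chromosome 11, 57551656 to 57568284, minus strand), rose with little spread between libraries. Its levels were 36.9, 40.8 and 45.0 CPM in knockdown and 11.1, 11.3 and 9.76 CPM in control. The log2 fold change was 1.92 ± 0.08 (SE), a 3.80-fold rise (adjusted p = 1.3e-28 in edgeR's quasi-likelihood test). UBE2L3, its close relative in the ubiquitin pathway, fell by 0.56 on the log2 scale, to 124 ± 5.26 CPM in knockdown, against 183 ± 3.62 CPM in control (mean ± SD, n = 3).

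HERC5 and HERC6 are neighbouring genes of a family whose proteins join a HECT ligase domain to RCC1-like repeats. They lie 14.0 kb apart on the plus strand of chromosome 4, HERC6 (ENSG00000138642) at 88378739 to 88443111 and HERC5 (ENSG00000138646) at 88457117 to 88506163. HERC5 was at 252, 280 and 354 CPM in knockdown, against 43.2, 47.5 and 45.7 CPM in control. HERC6, whose mouse counterpart is the main ISG15 ligase of that species, was at 97.7, 102 and 127 CPM in knockdown, against 12.3, 10.8 and 12.7 CPM in control. Both were many times higher in every knockdown library than in any control library. HERC5 rose by 2.7 ± 0.16 (SE) on the log2 scale (adjusted p = 0.000122 in edgeR's quasi-likelihood test). HERC6 rose by 3.19 ± 0.11 (SE), with an adjusted p of 2.15e-10 by the same test. Neither shares exonic bases with another gene in GENCODE v29.

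None of the other tested HERC genes, HERC1, HERC2 and HERC4, was called higher. HERC1 was not called, at -0.07 on the log2 scale (adjusted p = 0.167 in edgeR's quasi-likelihood test). HERC2 and HERC4 fell by 0.08 and 0.12, but with library size alone they stood at 0.07 and 0.04 and were not called, and HERC1 stood at 0.08. HERC3 was too low to test, at 0.341 ± 0.139 CPM in knockdown and 0.103 ± 0.108 CPM in control (mean ± SD, n = 3). The difference between these folds and those of HERC5 and HERC6 was not tested.

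USP18, the protease that takes ISG15 off its targets (ENSG00000184979, chromosome 22, 18149899 to 18177397, plus strand), also rose. Its levels were 83.4, 89.8 and 124 CPM in knockdown, against 10.7, 11.1 and 12.1 CPM in control. No library of one group came near the other group. The log2 fold change was 3.13 ± 0.21 (SE) (adjusted p = 0.000188 in edgeR's quasi-likelihood test). USP41, a near-identical copy on the same chromosome that RefSeq lists as a pseudogene, could share reads with it. USP41 had 2, 0 and 4 counts in knockdown and 0, 2 and 2 counts in control, too few to test.

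The knockdown libraries differed among themselves in the same way for most of the 6. Replicate 3 was the highest knockdown library for 6 of 6 and replicate 1 the lowest for 5 of 6, UBA7 being the exception. Among other interferon-response genes, replicate 3 was highest for 53 of 55 tested and replicate 1 lowest for 40 of 55. Over all tested genes replicate 3 was highest for 32.8% and replicate 1 lowest for 33.2%, and over genes that rose at least 2-fold for 49.9% and 40.7%. In control, ISG15 (53.9, 60.8 and 64.9 CPM) and USP18 (10.7, 11.1 and 12.1 CPM) also rose from replicate 1 to 3. The other members did not follow that order in control. Summed CPM of other interferon-response genes in replicates 1, 2 and 3 was 7036, 7390 and 9009 in knockdown and 1546, 1569 and 1593 in control. The highest knockdown library exceeded the lowest by 1.48-fold for USP18 and 1.22-fold for UBE2L6, and the highest control library exceeded the lowest by 1.14-fold and 1.16-fold. UBA7 was the most scattered, over 2.21-fold in knockdown and 2.89-fold in control, at few counts.

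Per length, the order of levels was led by ISG15 in both groups. Levels were set per kilobase of all exonic bases in GENCODE v29 and scaled to the same sum over all genes in each library (TPM). In knockdown, ISG15 was at 3423 ± 532 TPM, followed by HERC5 at 258 ± 46.3 TPM and USP18 at 194 ± 42.7 TPM. HERC6 at 78.3 ± 11.5 TPM and UBE2L6 at 77.5 ± 7.57 TPM came next, and UBA7 was last at 1.91 ± 0.720 TPM (mean ± SD, n = 3 throughout). Within knockdown, the ranges of HERC5 and USP18 overlapped, but HERC5 was above USP18 in each of the 3 libraries. HERC6 and UBE2L6 also overlapped, and their order differed between libraries. In control, ISG15 was at 236 ± 19.7 TPM and HERC5 at 35.5 ± 1.67 TPM. USP18 at 19.7 ± 1.08 TPM and UBE2L6 at 18.2 ± 1.64 TPM overlapped, and their order differed between libraries. HERC6 followed at 7.66 ± 0.588 TPM, and UBA7 was last at 0.496 ± 0.238 TPM. Per kilobase of the longest principal transcript instead, USP18 came to 130 ± 28.7 TPM in knockdown and 12.8 ± 0.699 TPM in control. The length of USP18 itself was 2129 bases either way, so its change came from the rescaled sum over all genes. With these lengths UBE2L6 stood above HERC6 in knockdown and above USP18 in control.

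The make-up of the system's RNA differed between the groups, with more of it from ISG15 in knockdown. ISG15 made up 58.7% ± 0.835 of the summed counts of the 6 genes in knockdown and 42.7% ± 1.90 in control (mean ± SD, n = 3). HERC5 made up 22.3% ± 0.404 in knockdown and 32.5% ± 1.01 in control, and UBE2L6 3.12% ± 0.194 in knockdown and 7.70% ± 0.891 in control. The shares of HERC6, 8.27% ± 0.310 in knockdown and 8.55% ± 0.883 in control, differed by less than the SD of the control libraries.

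Ratios of counts within a library, which do not depend on library scaling, were compared for 5 pairs. For each 100 counts of ISG15 there were 12.6, 11.8 and 13.7 counts of USP18 in knockdown, against 19.8, 18.2 and 18.7 in control. The log2 ratio of USP18 over ISG15 was lower by 0.576 in knockdown. Counts of HERC5 per 100 of ISG15 were 38.0, 36.9 and 39.2 in knockdown and 80.2, 78.2 and 70.4 in control, a log2 difference of -1.0. Counts of UBE2L6 per 100 of ISG15 were 5.57, 5.38 and 4.99 in knockdown and 20.7, 18.6 and 15.0 in control, a log2 difference of -1.76. For UBA7 the values were 0.353, 0.161 and 0.299 in knockdown and 1.36, 1.32 and 0.426 in control, a log2 difference of -1.86 that rests on few counts. Between the ligases, counts of HERC6 per 100 of HERC5 were 38.8, 36.5 and 35.9 in knockdown and 28.5, 22.8 and 27.7 in control, a log2 difference of 0.50. In each of the 5 pairs the groups did not overlap. The two-sided exact permutation test gave p = 0.10 for each, and 0.10 after Benjamini-Hochberg adjustment over the 5, which is the smallest p that 3 against 3 libraries allow, so none could reach 0.05.

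**Figure D3:**
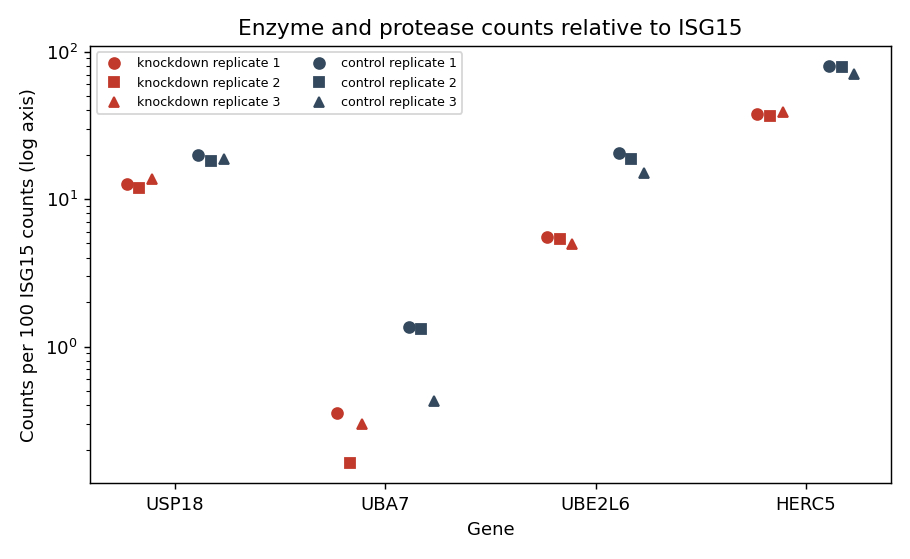
Counts of USP18, UBA7, UBE2L6 and HERC5 per 100 counts of ISG15 on a log axis, in each knockdown library (red, left) and control library (blue, right), with circles, squares and triangles for replicates 1, 2 and 3. For all 4 genes the knockdown libraries lie below the control libraries, with HERC5 at 36.9 to 39.2 in knockdown and 70.4 to 80.2 in control.

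Other enzymes reported to act on ISG15 moved both ways and by less. Of 9 listed, 4 rose and 5 fell by edgeR's quasi-likelihood test, where 30.7% of all tested genes rose and 30.9% fell. Their median log2 fold change was -0.14. With library size alone 4 rose and 4 fell, with a median of 0.02. USP16, a protease reported to cleave ISG15 as well as ubiquitin, rose by 1.24 to 102 ± 6.86 CPM in knockdown, against 43.4 ± 2.72 CPM in control (mean ± SD, n = 3). TRIM25, a ligase also reported for ISG15 and itself an interferon target, rose by 0.82. USP14 and USP13, ubiquitin proteases reported to react with ISG15, fell by 1.47 and 0.88.

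The genes through which USP18 acts at the receptor changed unequally. Of 6 genes for its partners and its turnover, 4 rose, 1 fell and 1 was not called, with a median of 0.17. Among all tested genes 30.7% rose and 30.9% fell. STAT2, which recruits USP18 to the receptor, rose by 2.26, to 144 ± 16.9 CPM in knockdown, against 30.1 ± 3.25 CPM in control (mean ± SD, n = 3). IFNAR1 rose by 0.48. IFNAR2, the subunit that USP18 binds, was at 1.45 ± 0.139 CPM in knockdown and 1.63 ± 0.482 CPM in control and was not called (adjusted p = 0.654 in edgeR's quasi-likelihood test). In the annotation 83.2% of its exonic bases overlap another gene, so its counts are uncertain. SKP2, part of a ubiquitin ligase that turns USP18 over, fell by 0.79, to 25.5 ± 1.81 CPM in knockdown, against 44.0 ± 0.589 CPM in control.

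Upstream, 5 of 5 tested interferon transcription factors rose, with a median of 2.26, where 30.7% of all tested genes rose. The largest rise was 2.82 for IRF7 and the smallest 0.36 for IRF3. IRF9 was too low to test, at 10, 6 and 14 counts in knockdown and 5, 5 and 2 counts in control, and 48.4% of its exonic bases overlap another gene. Of the interferon genes listed, IFNB1 had 29, 20 and 22 counts in knockdown and 0 in each control library. If counts are independent, 0 allows up to 3 counts. It was called higher, by 7.68 ± 1.01 (SE) on the log2 scale (adjusted p = 1.67e-09 in edgeR's quasi-likelihood test). The size of that fold is uncertain, as it rests on 0 counts in control, and IFNB1 passed the low-count filter only through knockdown. IFNE had 18, 16 and 29 counts in knockdown and 42, 46 and 24 in control and was not called, at -0.58 (adjusted p = 0.164 in edgeR's quasi-likelihood test). IFNL1, IFNL2 and IFNL3 had at most 10 counts in any knockdown library and 0 in each control library, too few to test.

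Families related by mechanism mostly fell or moved both ways. Of 9 other activating enzymes (E1), 1 rose and 8 fell, with a median of -0.40; UBA2, for SUMO, fell by 1.08 and MOCS3 rose by 0.49. Of 34 other conjugating enzymes (E2), 5 rose and 24 fell, with a median of -0.38; UBE2R2 fell by 2.31 and UBE2V1, with 42.9% of its exonic bases in common with another gene, rose by 0.52. Of 16 tested ubiquitin-like and ubiquitin genes, 3 rose and 11 fell, with a median of -0.30. ATG12 rose by 0.75, and GABARAPL2 and SUMO3 fell by 1.38 and 1.23. Of 23 tested HECT ligases, 9 rose and 8 fell, with a median of 0.01. HECW2 rose by 0.69 and NEDD4 fell by 1.09. Of 47 tested USP proteases, 15 rose and 18 fell, with a median of 0.02. Over all tested genes the shares were 30.7% higher and 30.9% lower. With library size alone, 13 HECT ligases rose and 4 fell, and 25 USP proteases rose and 15 fell, while 5 E1 and 22 E2 genes still fell. Within the USP list, with TMM scaling, USP16 led the rises and USP14 the falls. The largest rise in these 5 families, 1.24 for USP16, lay below the smallest of the 6 members, 1.77 for UBA7. Of other type I interferon-response genes, 55 of 55 tested rose, with a median of 2.30 and a range of 0.34 to 8.82. The 6 members lay inside that range. Its top is XAF1, with 64, 30 and 63 counts in knockdown and 0 in each control library. XAF1 and some others of the 55 passed the low-count filter only through knockdown. Their rise was fixed in advance, so the count of 55 of 55 overstates the evidence. All these lists were chosen with earlier results of these data known.

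**Figure D4:**
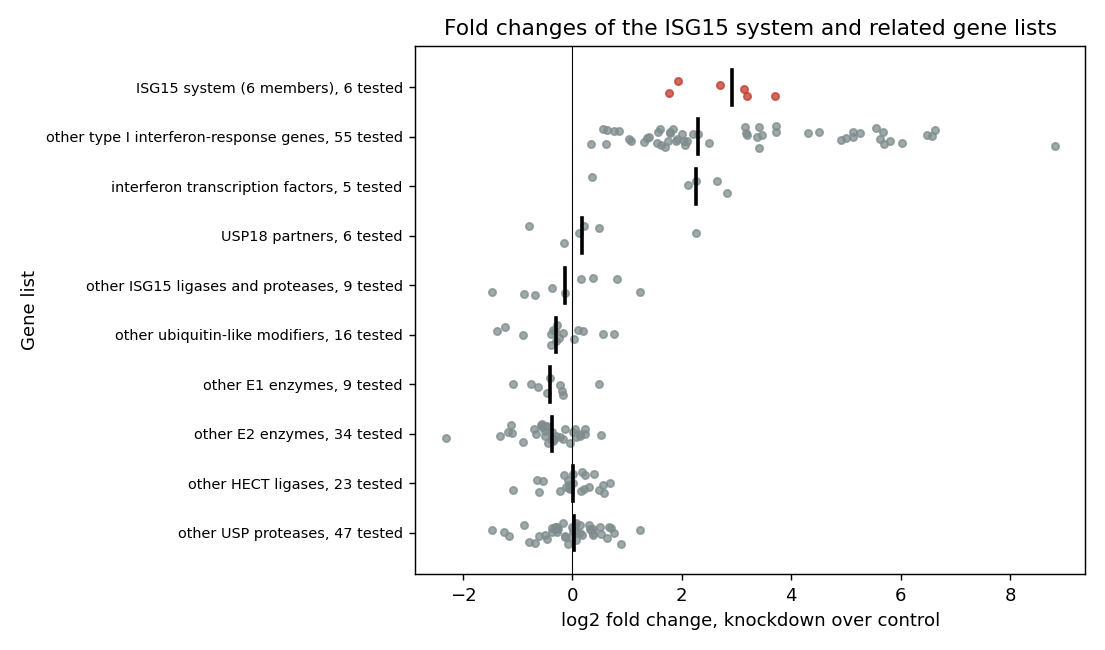
Log2 fold change, knockdown over control, of each tested gene (points) in the ISG15 system (red) and in 9 related lists (grey), with list medians as black bars and random vertical scatter. The 6 members lie at 1.77 to 3.69, within the span of other interferon-response genes, and above every gene of the E1, E2, HECT ligase, USP and ubiquitin-like lists.

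The 10 nearest tested genes beside the members, other than the HERC pair itself, moved both ways: 4 rose, 3 fell and 3 were not called, near the shares over all tested genes of 30.7% higher and 30.9% lower. HES4, 0.966 kb from the outermost annotated end of ISG15, rose by 0.96. HES4 ends at 1000172, and the ISG15 promoter window shown above begins only at 1013247. AGRN on the other side fell by 0.11, but stood at 0.04 and was not called with library size alone. Next to UBA7, IP6K1 rose by 0.42 and TRAIP fell by 0.54. SERPING1, beyond the UBE2L6 start, was at 0.78 (adjusted p = 0.0653 in edgeR's quasi-likelihood test) and was not called. SMTNL1, 1.38 kb from the other end of UBE2L6, rose but is scarce, at 0.519 ± 0.0528 CPM in knockdown and 0.0103 ± 0.0178 CPM in control (mean ± SD, n = 3). PYURF, 14.8 kb past HERC5, fell by 1.07. PPM1K, 94.0 kb before HERC6, rose by 1.90, to 58.0 ± 4.53 CPM in knockdown, against 15.6 ± 1.34 CPM in control. The nearest tested genes to USP18, ENSG00000280007 and PI4KAP1, were not called, at 0.10 and -0.17.

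For each member, genes with the most similar profile were taken from 12364 genes by the root mean square (RMS) difference of log2 CPM over the 6 libraries, each gene centred on its control mean. Nearest to ISG15 were SAMD9 at an RMS difference of 0.0635 and RIGI, a sensor of viral RNA, at 0.123. Among the nearest to HERC5 was KCNV1 at 0.0832. OAS3, which makes the activator of RNase L, was nearest both to HERC6, at 0.0587, and to USP18, at 0.0745. The next were PARP9 for HERC6, at 0.0899, and HELZ2 for USP18, at 0.129. Nearest to UBE2L6 were SLFN5 at 0.0544 and PCK2, a mitochondrial enzyme of gluconeogenesis, at 0.0685. UBA7 had no close match among these candidates, with NAP1L2 at 0.335 and ZNF204P at 0.376. Candidates had a mean log2 CPM of at least 1, so genes as scarce as UBA7 were left out. Among the members, HERC6 and USP18 were the closest pair, at 0.105, and ISG15 and UBA7 the farthest, at 1.51. These values describe a likeness of size and scatter over 6 libraries and nothing further.

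Library totals ran from 24231515 to 27900051 counts in knockdown and from 30735547 to 34306849 counts in control. FuHsi has no row under that name and its own level was not analysed here, so the labels were not checked against the target. Epithelial keratins KRT8 and KRT18 were abundant, at 320.02 ± 7.43 and 320.3 ± 17.5 CPM in knockdown and 494 ± 6.43 and 335 ± 2.36 CPM in control. KRT8 fell by 0.63, KRT18 was not called, and KRT7 rose by 1.72, to 4.10 ± 0.504 CPM in knockdown, against 1.24 ± 0.199 CPM in control. EPCAM, CDH1 and KRT19 were too low to test, and the 4 lung adenocarcinoma markers NKX2-1, NAPSA, SFTPB and SFTPC summed to 0.705 to 1.05 CPM in knockdown and 0.0918 to 0.45 CPM in control, so the labelled lung adenocarcinoma type does not show in them; NAPSA, the only one of the 4 tested, rose by 3.22 at 0.632 ± 0.183 CPM in knockdown and 0.0665 ± 0.0694 CPM in control. The 7 leukocyte markers summed to 11.7 to 13.3 CPM in knockdown and 11.8 to 12.4 CPM in control, nearly all of it ITGAM. Fibroblast markers summed to 2.84 to 4.43 CPM in knockdown and 1.63 to 2.74 CPM in control. Of the 3 tested, PDGFRB rose by 2.92 and DCN by 1.61, and COL1A1 was not called. Endothelial markers summed to 1.14 to 2.01 CPM in knockdown and 1.04 to 1.49 CPM in control, and neither of the tested ones was called. The part of these markers in the results was not tested. PTPRC, the pan-leukocyte marker, rose at a low level, to 0.748 ± 0.221 CPM in knockdown, against 0.273 ± 0.192 CPM in control, and HLA-DRA had 0 counts in all libraries (mean ± SD, n = 3 throughout).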

How the data were processed

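RNA of 6 NCI-H1299 libraries was measured by RNA sequencing. The deposited table holds raw counts, 1 row per Ensembl ID. Per the labels' protocols, RNAiso Plus extraction was followed by Tru-seq library preparation. Per the submitters' processing notes, the tools were STAR 2.7.0d, featureCounts 2.0.1, Trim Galore 0.6.6 and DESeq2 1.30.1, with hg38. Not given in the sources used here are strand setting, annotation release and treatment of ambiguous reads, so counts of overlapping genes are uncertain.

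Low genes were removed by filterByExpr (minimum count 10). The main test was the robust quasi-likelihood test of edgeR 4.0.16 (R 4.3.3) after TMM scaling, group as the only term. P-values were adjusted by Benjamini-Hochberg over all 17223 genes tested, and a gene was called under 0.05. Fold changes are knockdown over control, with an SE derived from the test statistic. Log2 CPM used a prior count of 2. Ratios added 0.5 to each count and used an exact permutation test (scipy 1.17.1). Coordinates, exon lengths and overlaps came from GENCODE v29 (GRCh38) and promoters from RefSeq (GRCh38.p14). Replicates of a group differed with a chi-square per degree of freedom of 2.80 to 4.68, which takes each count as independent. Many of the lowest counts are even numbers, such as 2, 0 and 4 in knockdown and 0, 2 and 2 in control for USP41. Independence was not tested, so the excess over sampling noise is uncertain.

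The members and lists were chosen with earlier results of these data known. Named genes were the members, USP41, called genes at the ends of each list, the nearest tested gene on either side of each member that does not overlap it, and the 2 nearest profiles with a mean log2 CPM of at least 1; a few items are not reported here. Other list genes are named for their role, after their values were seen. The test was tried on simulated counts for knockdown against control (16473 genes tested): it called 75 of 94 genes with a log2 change of 1, 56 of 96 with one of 0.5, and 7 of 16283 with none. The simulation changed few genes, equally up and down, with noise drawn from the fitted model. In the data 30.7% of genes rose and 30.9% fell, so it cannot show how the test or the scaling behaves there. Alternatives were relative log expression (RLE) and upper-quartile factors, library size alone, no filter, DESeq2 1.42.0, limma-voom (limma 3.58.1), the replicate number as a block, thinning to the smallest library, each library left out, and USP18 summed with USP41.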

Additional observations from a re-analysis of the deposited data

How the results depend on the processing

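All 6 members were called higher in every alternative run: RLE, upper-quartile factors, library size alone, no filter, DESeq2, limma-voom, the replicate block, thinning, and each library left out. Leaving out 1 library gave log2 fold changes of 3.56 to 3.79 for ISG15, 1.43 to 2.02 for UBA7, 1.84 to 1.99 for UBE2L6, 2.54 to 2.80 for HERC5, 3.06 to 3.26 for HERC6 and 2.93 to 3.24 for USP18. The highest adjusted p over all alternatives was 0.00242, for USP18 without control replicate 1. With RLE or upper-quartile factors the median log2 fold change of all genes moved by less than 0.1, and with library size alone by 0.15. The 5 ratios kept their direction in every alternative run, and UBA7 over ISG15 ran from -2.40 to -1.53 with 1 library left out. Levels per kilobase depended on the set of lengths used over all genes, an alternative chosen after seeing the data. USP18 in control moved by over 1.5 times although its own length was unchanged, through the rescaled sum over all genes.

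With the replicate number as a block, the log2 fold changes were 3.69 for ISG15 and 3.11 for USP18, 6 of 6 members were called, and 5214 genes were higher and 5263 lower. Over all tested genes, deviations of same-numbered libraries correlated at -0.000751, -0.00642 and -0.0235. These values cannot say whether the members deviate together by number. With the block, the SE fell from 0.164 to 0.041 for ISG15 and from 0.214 to 0.068 for USP18, and also for HERC5 and HERC6. It did not fall for UBA7 (0.345 to 0.365) or UBE2L6 (0.083 to 0.085). Whether same-numbered libraries share a batch was not tested. UBA7 rests on 8 to 69 counts per library, which limits its precision. USP41, IRF9 and HERC3 had too few counts to test, and the cause was not tested.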
